A study of Papio hamadryas with 12 samples.

Results

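The array used here carried 9576 targets whose identifiers begin with hmm. These stand for genes that were predicted by computation from genome sequence. The report concerns the 114 of them that were detected above background (detection p under 0.01) on all 12 arrays of fetal baboon frontal cortex. They make up 1.19% of the hmm targets, and the whole table lists 47296 rows. The members were chosen by their detection p-values, so their number and levels are descriptions and carry no test. The files pair no target with a gene name or a sequence, so members are given by identifier. For the same reason the cortex could not be checked against marker genes, and the label as predicted genes could not be checked beyond the identifier.

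The samples were total RNA from the frontal cortex of 12 baboon fetuses (Papio hamadryas), taken near term on day 165 of gestation, with 1 bead array per fetus. Of the mothers, 6 were controls and 6 had their nutrients restricted while pregnant. Among the fetuses of each condition 3 were male and 3 female. The sources used here state neither the degree of restriction nor the array version and the species for which it was designed.

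Gene-finding programs scan genome sequence for splice sites, open reading frames and base composition, often with a hidden Markov model, the statistical model that the letters hmm commonly stand for. Such a prediction needs no cloned transcript, so many predicted genes are later merged with known genes, recognised as pseudogenes or withdrawn. A probe for a predicted gene measures whatever RNA pairs with it, including RNA from a related gene. The other identifier classes on the array rest on other records: GI identifiers are sequence records of NCBI, and Hs identifiers have the form of UniGene clusters of expressed sequence tags.

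Detection was far rarer among hmm and Hs targets than among GI targets. At a detection p under 0.01, 9299 of the hmm targets (97.1%) were detected on none of the 12 arrays, and 277 on at least 1. Of the GI targets 25.3% (6607 of 26098) were detected on all 12 arrays, and of the Hs targets 1.88% (219 of 11622). Among the hmm targets seen at least once, the count on all 12 arrays was higher than that on any smaller number of arrays: 23 were detected on 11 arrays, 16 on 10 and 27 on 1 array. Of the 23 hmm targets that missed a single array, 11 were missed on the array of nutrient restricted animal 6, 4 on that of control 2, 4 on that of nutrient restricted 2 and 0 on that of control 1. At the looser limit of 0.05, 307 hmm targets (3.21%) were detected on all arrays.

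At the edge of the rule, hmm20337-S and hmm28631-S lay just inside, each with a largest detection p of 0.00989. Their median signals were 170 and 181. Just outside lay hmm27020-S with a largest p of 0.0106, from nutrient restricted animal 4, and hmm28030-S with 0.0112, from control 2. Their median signals were 253 and 198, so by the median the targets just outside were no dimmer than those just inside. On the arrays that kept them out they were dimmer. On nutrient restricted 4, hmm27020-S had a signal of 153, against 168 for hmm20337-S and 192 for hmm28631-S. On control 2, hmm28030-S had 164, against 172 and 198.

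The number of hmm targets detected on an array was counted over all hmm targets, not only the members. It was 205, 187, 225, 218, 192 and 169 on the arrays of control animals 1 to 6. On those of nutrient restricted animals 1 to 6 it was 211, 179, 202, 189, 189 and 158. The lowest count of each group came from its animal 6, and the groups overlapped. The mean was 199 ± 20.8 (SD, n = 6) for controls and 188 ± 18.5 for nutrient restricted animals, a difference of -11.3 that was smaller than the spread between animals (exact permutation p = 0.342, two-sided). The hmm share of all detected targets was 2.21% ± 0.18 for controls and 2.12% ± 0.16 for nutrient restricted animals (difference -0.10 percentage points, exact permutation p = 0.34). No hmm target was detected on all 6 arrays of one condition and on none of the other, nor in this way between the sexes.

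The levels below are background-corrected, quantile-normalised log2 signals. In whole cortex, fewer cells of a type and less RNA per cell cannot be told apart. The members' mean levels ran from 6.74 to 13.46 with a median of 8.36. The median of the 6600 GI targets that passed the same filter was 9.02, and 33.1% of them lay below the members' median. The mean scanner signal was above 1000 for 27 of 114 members and under 250 for 26, with a median of 400 over the members.

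**Figure D1:**
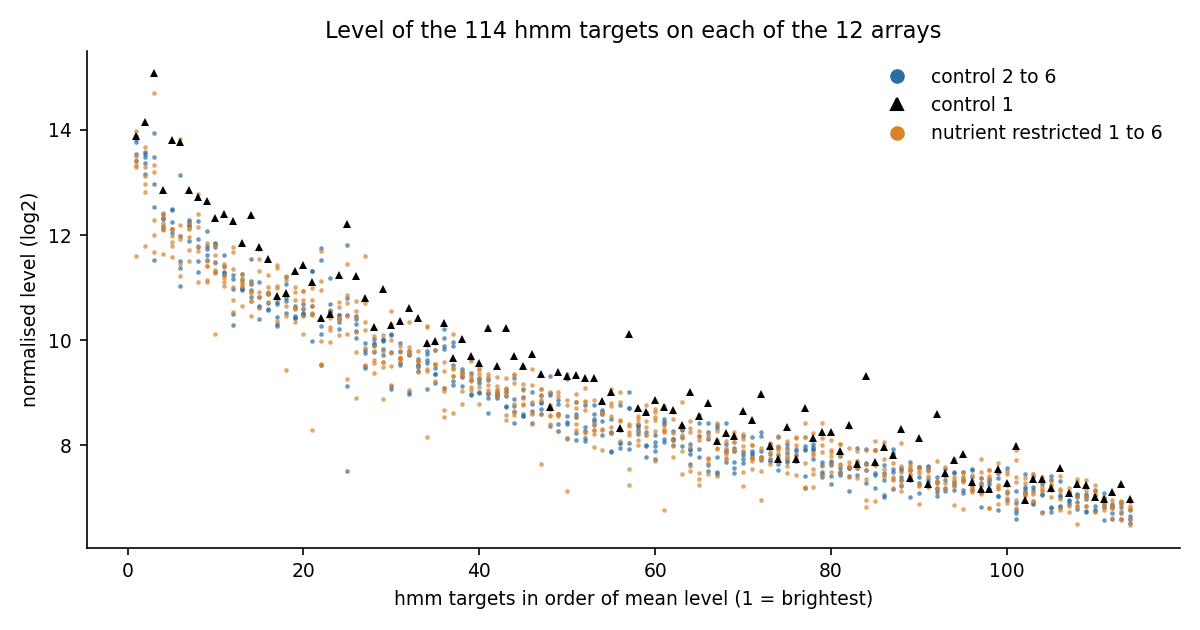
Normalised level (log2) of the 114 hmm targets on each array, ordered along the horizontal axis by mean level, with 1 point per animal. The mean levels fall from 13.46 to 6.74, and the triangles of control 1 lie at the upper edge of the points for 63 of the 114 targets.

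The brightest member was hmm30776-S. Its level was 13.89, 13.53, 13.89, 13.82, 13.42 and 13.77 in controls 1 to 6, and 13.98, 13.29, 13.42, 13.34, 13.51 and 11.60 in nutrient restricted animals 1 to 6. A single animal, nutrient restricted 6, lay far below the rest, at a scanner signal of 3168 against a median of 12306 over all arrays. The next brightest, hmm31879-S, had 14.15, 13.17, 13.48, 13.37, 13.53 and 13.58 in the controls and 13.67, 13.12, 12.96, 12.81, 13.29 and 11.79 in the nutrient restricted animals. It was lowest in the same animal, and the levels of both targets had a Pearson r of 0.91 over 12 animals (0.94 without control 1). The r without nutrient restricted 6, the animal lowest for both, was not computed.

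The third brightest member, hmm36432-S, varied among animals far more. Its level was 15.08, 12.53, 13.48, 12.97, 13.94 and 11.53 in the controls and 11.68, 14.70, 13.33, 12, 13.20 and 12.29 in the nutrient restricted animals. Control 1 and nutrient restricted 2 were highest, and control 6 and nutrient restricted 1 lowest. The same animals were highest and lowest for hmm36295-S, which ran from 11.03 in control 6 to 13.83 in nutrient restricted 2, with an r of 0.93 to hmm36432-S over 12 animals (0.90 without control 1). The scanner signal of hmm36432-S ranged from 2938 to 34353 and that of hmm36295-S from 2058 to 18535. Sequence shared by these probes cannot be checked here, so whether they measure separate RNAs was not tested.

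The most variable member was hmm28385-S, with levels of 12.20, 11.82, 9.13, 10.81, 7.50 and 10.47 in the controls and 10.12, 10.46, 9.26, 10.70, 11.45 and 10.85 in the nutrient restricted animals. Control 5 was lowest, at a signal of 262 against a median of 1569. Its r to hmm36432-S was -0.04 over 12 animals and -0.39 without control 1. At the other end hmm29857-S stayed between 6.73 and 7.18 over all 12 animals, hmm9715-S between 7.11 and 7.54, and hmm20323-S between 7.63 and 8.04. The median signals of these 3 least variable members were 197, 226 and 293.

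The spread between animals, as the SD within the groups, had a median of 0.32 over the members and ranged from 0.14 to 1.35. It was set beside GI targets of like level, the 20 GI targets under the same filter that were nearest in mean level to each member (1886 distinct targets, at most 0.19 away). Their median SD was 0.25, and that of the Hs targets under the same filter was 0.30. An SD over 0.5 was measured for 19 members (16.7%) and for 4.34% of the GI targets of like level. For 83 of 114 members the SD was above the median of their own GI targets. Without control 1 the median SD was 0.25 for the members, 0.23 for the GI targets of like level and 0.27 for the Hs targets. With control 1 included again, the median SD of the brightest 38 members was 0.43, against 0.23 in their GI targets. In the dimmest 38 it was 0.24 in both. The count over 0.5, the 83 members and these SDs by level all include control 1 and were not computed without it.

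**Figure D2:**
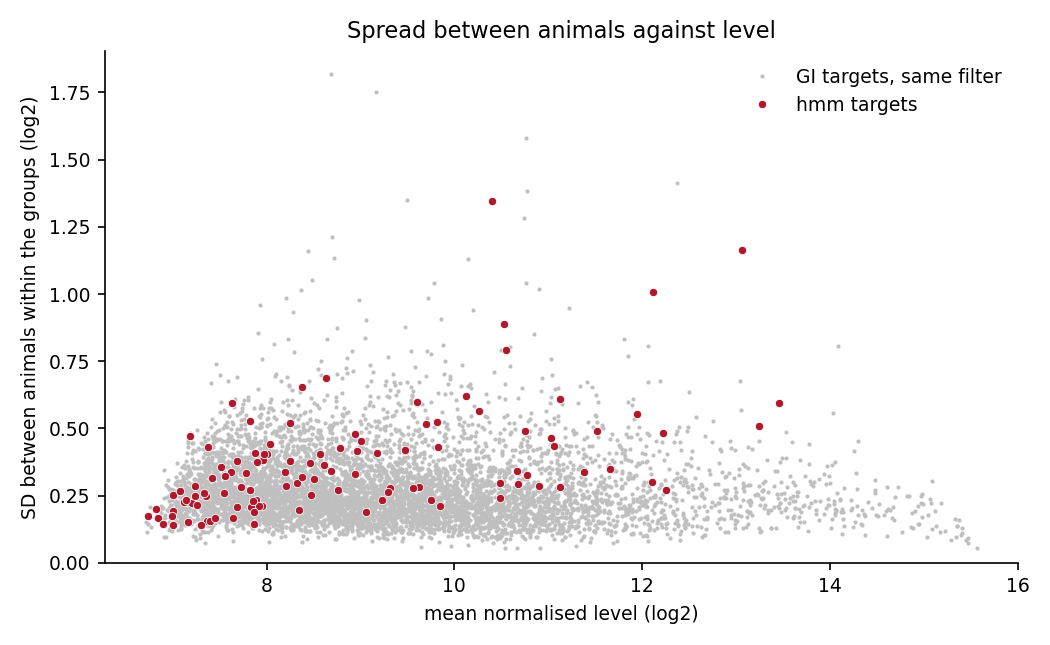
SD between animals within the groups (log2) against mean level (log2) for the 114 hmm targets and the GI targets under the same filter, 1 point per target. Most hmm targets lie among the GI targets, and 19 lie above 0.5, up to 1.35 for hmm28385-S.

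The array of control 1 stood apart for the hmm and the Hs targets. Relative to each target's own median over 12 arrays, the members lay at a median of 0.52 on control 1 and between -0.13 and 0.14 on the other 11 arrays. The Hs targets under the same filter lay at 0.38 on that array, and the GI targets of like level at 0.01. Of the members, 104 (91.2%) were higher on control 1 than the median of the other arrays, against 91.8% of the Hs targets and 53.0% of GI targets of like level. Their level was over 1 log2 unit higher there for 18 members (15.8%) and over 1 lower for 0, where it was over 1 higher for 9.59% of the Hs targets. The array of control 1 gave the highest level of all 12 for 63 members, where it did so for 19.4% of the GI targets of like level.

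This offset was present before normalisation and in the authors' values. In the scanner signals, control 1 was dim: its members lay -0.17 from their medians and its GI targets of like level -0.57, a gap of 0.39. On the other arrays this gap ran from -0.09 to 0.14. In the authors' processed values the gap on control 1 was 0.54, and elsewhere it lay between -0.16 and 0.13. The offset was larger for bright members, with a median of 0.83 over the other arrays in the brightest 38, 0.56 in the next 38 and 0.26 in the dimmest 38. The mean signal of all targets on this array was 237, against 303 to 391 on the others. The part of this dimmer array in the results was not tested. Most counts, medians and named differences below are also given without this animal.

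**Figure D3:**
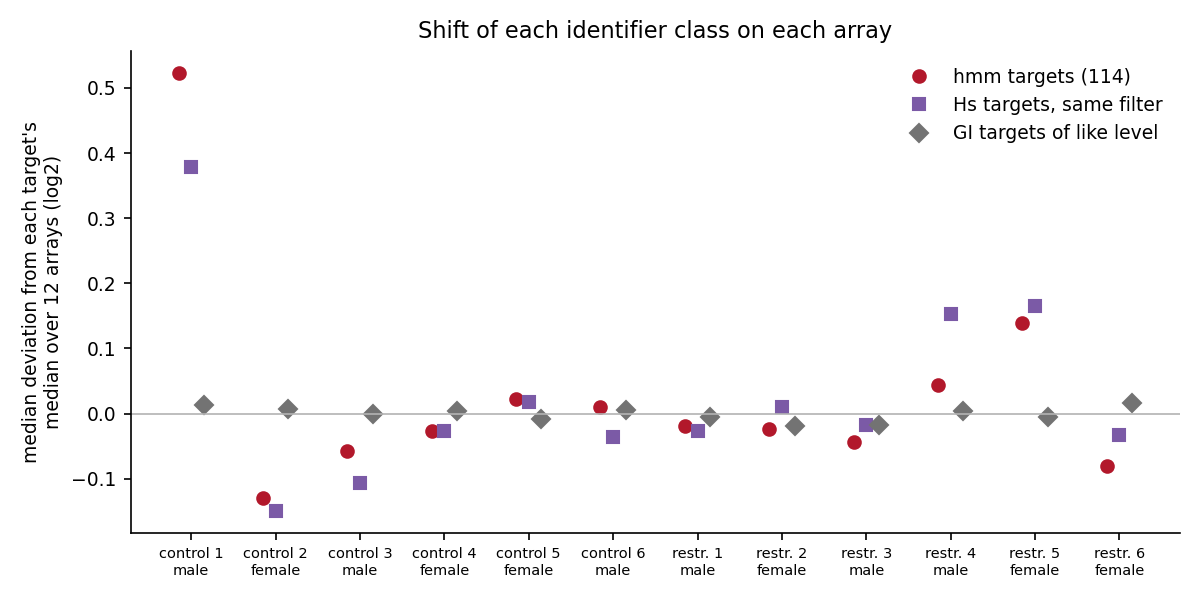
Median deviation (log2) of 3 identifier classes from each target's median over 12 arrays, for each array on the horizontal axis with the sex of the fetus below it. On control 1 the hmm targets stand at 0.52, the Hs targets at 0.38 and the GI targets of like level at 0.01.

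The co-variation of the members was mostly weak. The median Pearson r over 6441 pairs of members was 0.28 over 12 animals and 0.10 without control 1. The single GI target nearest in level to each member gave 0.002 and -0.003. The pair with the highest r, hmm20065-S and hmm28793-S, was picked after its values were seen and had an r of 0.97, with 0.97 also without control 1. The level of hmm20065-S ranged from 7.01 in control 2 to 8.07 in nutrient restricted 5, and that of hmm28793-S from 7.87 to 9.06 in the same animals.

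The main comparison asked which members differed between nutrient restriction and control. No member passed an adjusted p under 0.05 in limma (0 of 114, and 0% of the 13244 targets tested; smallest adjusted p of a member 0.475). The members' differences, nutrient restricted minus control, ran from -0.84 to 0.49 with a median of -0.06. The median was 0.00 over all targets tested and -0.01 over the GI targets of like level. At an unadjusted p under 0.05, 1 member was higher in the nutrient restricted group, where 4.18% of all targets tested were, and 10 members (8.77%) were lower, where 5.31% were. Both directions together came to 9.65% of the members against 9.48% of all targets tested, so the members' total was near the background. No member had groups that did not overlap, where 0.521% of all targets tested did.

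The sign of the median, which lay near 0, turned without control 1. Without that animal the median difference of the members was 0.03 and that of all targets tested -0.01. Then 65 members had a difference above 0 and 49 one below it, where with all animals these were 46 and 68. At an unadjusted p under 0.05, 8 members were then higher (5.23% of all targets tested) and 4 lower (5.08%). Those 4 were among the 10 lower with all animals, and all 10 kept a difference below 0, from -0.84 to -0.35 with all animals and from -0.75 to -0.29 without control 1. For 8 of those 10, control 1 was the highest of the 12 animals. In all, 21 members took the opposite sign, and the smallest adjusted p was 0.452.

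**Figure D4:**
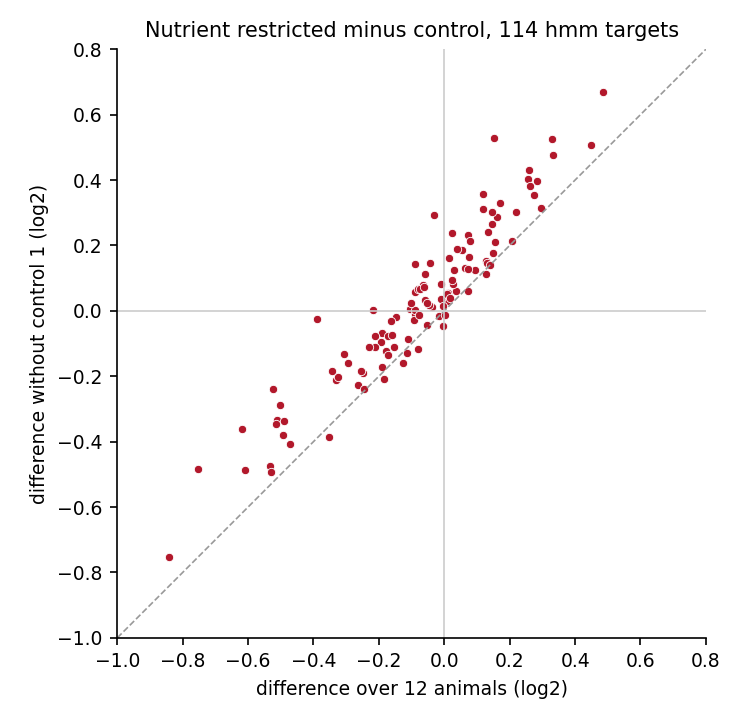
Difference between nutrient restricted and control animals (log2) of the 114 hmm targets over all 12 animals on the horizontal axis and without control 1 on the vertical axis, with the dashed line of equality. Of the 114 points, 103 lie above that line, and the median moves from -0.06 to 0.03.

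The member with the smallest p was hmm3048-S. Its level was 10.33, 9.10, 9.83, 10.21, 10.03 and 9.89 in controls 1 to 6, and 9.59, 9.03, 9.41, 9.09, 8.53 and 8.68 in nutrient restricted animals 1 to 6. Only control 2 lay inside the range of the nutrient restricted animals. The controls had a mean of 9.90 ± 0.44 (SD, n = 6) and the nutrient restricted animals one of 9.06 ± 0.41, a difference of -0.84 (SE 0.22, limma adjusted p = 0.475). Without control 1 the difference was -0.75, with an unadjusted p of 0.004 from limma.

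The other named member on that side was hmm29156-S, at 12.65, 11.52, 12.08, 11.79, 11.63 and 11.73 in the controls and 11.42, 11.42, 11.84, 11.15, 11.50 and 11.11 in the nutrient restricted animals. Controls 1 and 3 lay above every nutrient restricted animal, and the other controls lay within their range. The difference was -0.49 (SE 0.19, limma adjusted p = 0.483) and -0.34 without control 1.

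In the other direction, hmm3511-S had levels of 10.85, 10.45, 10.31, 10.69, 10.73 and 10.27 in the controls and 10.78, 10.99, 11.02, 11.37, 11.44 and 10.37 in the nutrient restricted animals. Of the latter, 4 lay above every control and nutrient restricted 6 lay among the lowest. The difference was 0.45 (SE 0.18, limma adjusted p = 0.496), and 0.51 without control 1. For hmm22128-S the levels were 8.17, 7.56, 7.48, 7.68, 7.88 and 7.95 in the controls and 7.91, 8.07, 7.89, 8.18, 8.26 and 8.06 in the nutrient restricted animals. Controls 1 and 6 lay within the range of the nutrient restricted animals, and the other 4 controls below it. The difference was 0.27 (SE 0.13, limma adjusted p = 0.526) and 0.35 without control 1.

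The data bounded the differences of most members. The median SE was 0.17, against 0.14 for GI targets of like level. The 95% confidence interval lay wholly within 2-fold up or down for 101 of 114 members (88.6%). It lay within 1.5-fold for 66 (57.9%). No member differed by over 2-fold. These counts include control 1 and are not given without it. Nor are they given for all targets tested or the GI targets of like level.

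The same comparison within each sex used 3 animals per group and the spread of all 12. In males 0 members passed an adjusted p under 0.05 in limma (0% of all targets tested, smallest adjusted p of a member 0.867). At an unadjusted p under 0.05, 1 member was higher (2% of all targets tested) and 7 were lower (2.61%), where 4.61% of all targets tested passed in either direction. All 7 were lost without control 1, which is a male: 2 members were then higher and 0 lower, and the members' median difference went from -0.16 to 0.01. In females 0 members passed (0% of all targets tested, smallest adjusted p of a member 0.572). At an unadjusted p under 0.05, 6 members were higher (3.57% of all targets tested) and 2 lower (2.62%), where 6.19% of all targets tested passed in either direction. Without control 1, whose array also enters the estimate of the spread and the normalisation, these were 8 and 3. With the arrays scaled to equal medians instead they were 3 and 14, and the median difference of all targets in females was then itself -0.23. The shares of all targets tested are not given here without control 1 in either sex, nor with equal medians. Those counts therefore have no background beside them.

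Whether the effect differed between females and males was tested directly. No member passed an adjusted p under 0.05 in limma (0% of all targets tested, smallest adjusted p of a member 0.999). At an unadjusted p under 0.05 the effect was higher in females for 4 members (1.48% of all targets tested) and lower for 0 (1.24%), where 2.72% of all targets tested passed in either direction. Without control 1 these were 2 and 0, and the share of all targets tested is not given here for that fit. The members had a median of 0.20 for this contrast, and of 0.02 without control 1. The smallest p belonged to hmm35813-S. Its level was 7.99, 6.91 and 7.12 in control males (animals 1, 3 and 6), 6.71, 6.59 and 6.77 in control females (2, 4 and 5), 6.80, 6.96 and 7.30 in nutrient restricted males (1, 3 and 4) and 7.40, 7.71 and 7.91 in nutrient restricted females (2, 5 and 6). All 3 nutrient restricted females lay above all 3 control females, while the males overlapped. This target was dim, with a median signal of 199 and a largest detection p of 0.00791, near the limit of the rule. The nutrient restricted minus control difference was 0.98 in females and -0.32 in males, a difference of 1.30 (SE 0.37, limma adjusted p = 0.999), and 0.98 without control 1.

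For hmm28933-S the effect was 0.68 in females and -0.15 in males, a difference of 0.83 (SE 0.30, limma adjusted p = 0.999), and 0.60 without control 1. On the other side, hmm17516-S had -0.47 in females and 0.09 in males, and hmm3048-S -1.03 and -0.65. These differences between the sexes were -0.56 for hmm17516-S and -0.38 for hmm3048-S, and -0.60 and -0.54 without control 1. Neither difference between the sexes passed an unadjusted p of 0.05 in limma (0.187 and 0.352). Within the sexes, the effect of hmm3048-S had an unadjusted limma p of 0.003 in females and 0.037 in males (adjusted 0.573 and 0.867). The intervals of this contrast are wide, and those of 50 of 114 members (43.9%) lay within 2-fold up or down with control 1 included.

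Between the sexes 0 members passed an adjusted p under 0.05 in limma (smallest adjusted p of a member 1), where 0.0453% of all targets tested did. At an unadjusted p under 0.05, 1 member was higher in females (1.46% of all targets tested) and 4 were lower (1.8%), where 3.27% of all targets tested passed in either direction. Without control 1 these were 5 and 1, and the median difference of the members went from -0.09 to -0.02. The share of all targets tested without control 1 is not given here, so the 5 and 1 have no background beside them. The groups did not overlap for 1 member, hmm29698-S, where 0.166% of all targets tested did not overlap. Its level was 9.12, 9.32, 9.30, 9.31, 9.03 and 8.78 in the females (controls 2, 4 and 5, nutrient restricted 2, 5 and 6). In the males (controls 1, 3 and 6, nutrient restricted 1, 3 and 4) it was 10.02, 9.39, 9.46, 9.37, 9.35 and 9.38. The lowest male lay 0.03 above the highest female. The mean was 9.14 ± 0.21 (SD, n = 6) in females and 9.49 ± 0.26 in males, a difference of -0.35 (SE 0.14, limma adjusted p = 1), and -0.25 without control 1.

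Of the other named members, hmm30113-S had 9.13 ± 0.16 in females and 9.45 ± 0.23 in males (difference -0.32, SE 0.12, and -0.29 without control 1). Higher in females were hmm22799-S, with 7.36 ± 0.17 against 7.06 ± 0.14 (difference 0.30, SE 0.12, and 0.34 without control 1), and hmm29532-S, with 10.31 ± 0.77 against 9.94 ± 0.50 (difference 0.37, SE 0.26). For hmm29532-S the highest values were 11.61 in nutrient restricted 2, a female, and 10.81 in control 1, a male. Its difference was 0.19 without nutrient restricted 2 and 0.56 without control 1, where the unadjusted limma p went from 0.18 to 0.0255. None of these 3 passed the adjusted threshold.

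**Figure D5:**
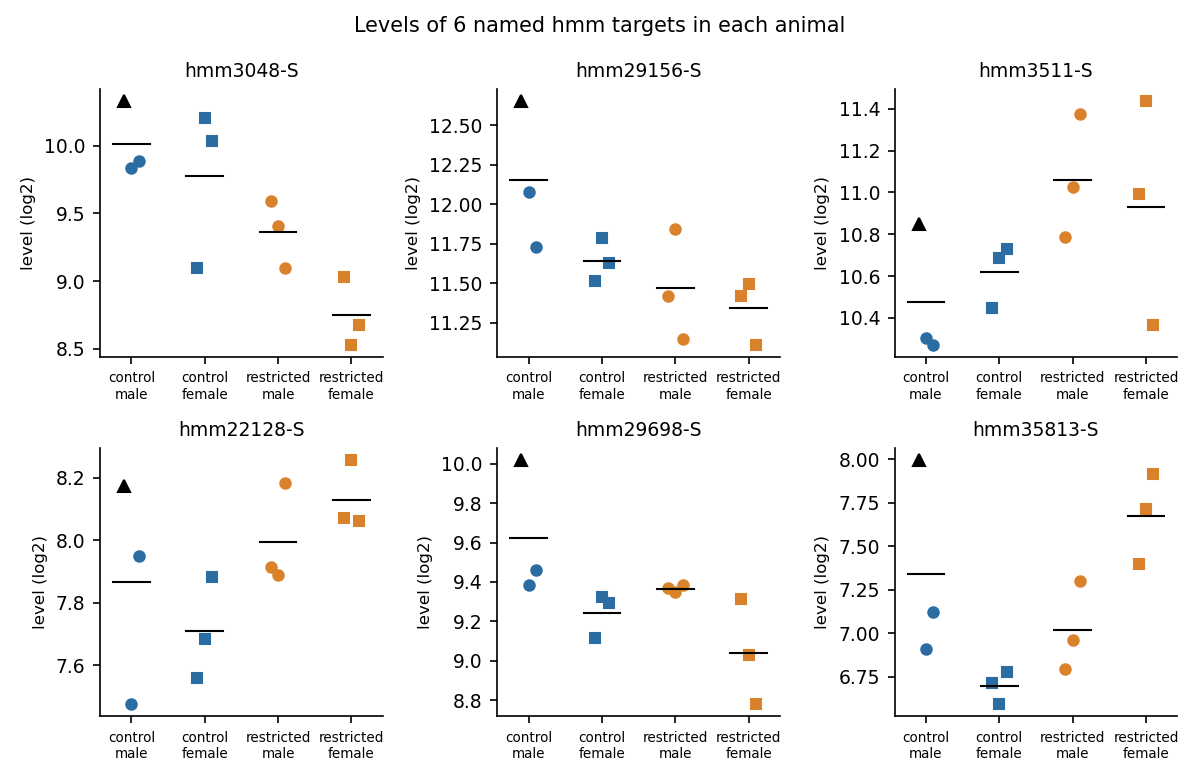
Levels (log2) of 6 named hmm targets in each animal, by condition and sex, with circles for males, squares for females, a black triangle for control 1 and a line at the mean of the 3 animals of each subgroup. The vertical axes differ and do not start at 0. For hmm29698-S the lowest male lies 0.03 above the highest female, and for hmm3048-S the means are 9.90 in control and 9.06 in nutrient restricted animals.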

How the data were processed

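Total RNA had been isolated with Trizol and RNeasy clean-up and amplified to biotin-labelled cRNA, per the labels' protocols. The submitters' processing notes name GenomeStudio 1.9.0. Per the file headers, the deposited scanner table gives, for each target and array, the average bead signal (intensity) and a detection p-value. A second table, of log2 values processed by the authors and deposited under row numbers, were matched to scanner rows by all 12 values within 0.01. Of its 22148 rows 20627 matched, all 114 members among them. Its column medians lay near 0 and the rule for choosing its rows was not found.

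Signals were normalised with neqc (limma 3.58.1, R 4.3.3; offset 16). Targets detected at p under 0.05 on at least 6 arrays (13244, the brightest row of an identifier) entered 1 linear model per comparison (lmFit, eBayes), and p-values were adjusted over all of them by the Benjamini-Hochberg method. Sex comparisons came from a fit of 4 group means. The method was tested on simulated data. Members, named targets (highest level, highest and lowest spread, smallest p per direction, nearest the detection limit) and alternatives were chosen with earlier results of these data known. The number of arrays limits the precision. Python 3.11.15 was used for counts, exact permutation tests and plots. No scan date or slide was found. Array numbers 1 to 6 were controls and 7 to 12 nutrient restricted, so that order and condition cannot be told apart. Separate mothers are not numbered in the labels, so p-values measure the spread between these samples.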

Additional observations from a re-analysis of the deposited data

Results flagged for a closer look

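In each group of 6 animals the highest and lowest values were examined for a wide gap to the nearest other value, relative to the whole range (Dixon's 95% limit). Of 60 sets, 11 met this, where chance gives about 5% for sets not picked by their values. That rate does not apply directly here, as some sets are members named for their spread or p. The 11 are also related measures: 8 of them concern control 1. The members' median level was 8.91 on control 1, against 8.18 to 8.35 in the other controls. Their median shift from each member's own median was 0.52 there, against -0.13 to 0.02. The members' shift less that of GI targets of like level was 0.51 (others -0.14 to 0.03), 0.39 in the scanner signals (others -0.09 to 0.04) and 0.54 in the authors' processed values (others -0.16 to 0.03). Control 1 held the highest level of all animals for 63 members, against 0 to 12 on the other control arrays. A pair of named members stood apart in the same animal: hmm29532-S at 10.81 (others 9.48 to 9.95) and hmm28933-S at 8.25 (others 7.40 to 7.68).

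In the nutrient restricted group, animal 5 held the highest level for 18 members, against 0 to 6 on the other arrays of the group. The level of hmm30776-S was 11.60 in animal 6, against 13.29 to 13.98. That of hmm36295-S was 13.83 in animal 2, against 11.23 to 12.19. Over all members and both groups, 30 of 228 sets (13.2%) had such a gap, 20 of them from control 1 and 6 from nutrient restricted 6.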

How the results depend on the processing

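The normalisation of GI targets apart from the others was an alternative chosen after seeing the data; the rest were planned. At an adjusted p under 0.05, 0 members passed in each of the 5 comparisons under every alternative run. The members named for a smallest p were followed in the comparison in which they were picked. Their adjusted limma p-values ranged from 0.226 to 1. None of their 256 values under an alternative had the opposite sign, though each was picked for its p in that direction. Members named only for level, spread or the detection limit were not among these. Of those, hmm36295-S had a difference between the conditions of -0.03 with all animals and 0.29 without control 1. Between the conditions, the counts at an unadjusted p under 0.05 were 1 higher and 10 lower. The higher count was 2 without background correction and 2 with no detection filter, 0 with arrays scaled to equal medians and 0 on the authors' values, 4 with array weights, 3 with classes normalised separately and 5 with the 307 members detected at p under 0.05. The lower count was 18 with equal medians and 17 with those 307 members. Leaving out 1 animal gave 0 higher (without control 3) to 8 (without control 1), 4 lower (without control 1) to 14 (without nutrient restricted 1), and a median difference from -0.08 to 0.03. Equal medians gave a median difference of -0.15 for the members and -0.08 for all targets, and array weights one of 0.02. In males the lower count of 7 was 19 on the authors' values and 4 with classes normalised separately, and 0 (without control 1) to 14 (without control 3) with 1 animal left out. In females the counts of 6 higher and 2 lower were 3 and 14 with equal medians, and from 3 to 11 higher and 1 to 6 lower with 1 animal left out (fewest without control 2). For the effect between the sexes, the higher count of 4 was 2 (without control 1) to 10 (without control 3) with 1 animal left out, and equal medians set the median of all targets for this contrast at -0.28. Between the sexes the lower count of 4 was 13 with equal medians and 1 with classes normalised separately, and 1 (without control 1) to 10 (without control 3) with 1 animal left out. The cause was not tested.

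The labels give replicate numbers but state no pairing of the animals. Same-numbered animals had a correlation of deviations between -0.22 and 0.58, which cannot decide whether the numbers mark pairs. With the replicate block, 1 member was higher and 11 lower between conditions, 16 lower in males and 11 higher in females. The effect was higher in females for 14. The shares of all targets that passed with this block are not given here. In these arbitrary pairs the hmm share's difference of -0.10 (exact permutation p = 0.0312, 0.34 unpaired) decides nothing. The differences in detected hmm targets ranged from -17.4 to -5.33, and in their share from -0.14 to -0.05, with 1 animal left out. The members' median level was 8.63 without background correction and 6.75 for the 307 members, and 8.30 to 8.39 with 1 animal left out. Their median SD was then 0.25 to 0.33. Signals near background limit what the dimmest members can show.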
